A study of Homo sapiens with 20 samples.

Results

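POLR1D was silenced in SW480, an established colorectal cancer cell line, with the siRNA named siPOLR1D-2, and 3 libraries of these cells were set against SCR replicates 1, 2 and 3, which received a scrambled control siRNA. These 6 libraries are part of 20 in all. SW480 carries a gain of the whole of chromosome 13, where POLR1D lies, and controls and silenced cells share this gain. Cells of every library were transfected transiently with Lipofectamine RNAiMAX and harvested 72 h later, and RNA was captured for coding transcripts before sequencing. The labels do not state whether replicates were separate cultures, so p values measure the spread between these libraries only. Comparisons that share no library with the 6 are given beside them: a second siRNA, siPOLR1D-3, in SW480 (3 libraries against SCR replicates 4 to 6), and siPOLR1D-2 in HT29, a colorectal line with a focal 13q12.2 amplification (2 libraries against 4 SCR libraries). The 6 libraries were chosen by how SW480 libraries group in their overall expression, and siPOLR1D-2 replicate 3 does not group with replicates 1 and 2.

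POLR1D encodes a small subunit shared by RNA polymerase I, which transcribes the large ribosomal RNA precursor, and RNA polymerase III, which makes tRNAs and other short RNAs. Both enzymes set the supply of ribosomes and tRNAs and are known to be highly active in growing tumour cells. GENCODE release 29 places the protein-coding gene POLR1D on the plus strand of chromosome 13 of GRCh38, from base 27620742 to 27744237. An siRNA directs the cleavage of transcripts that it pairs with, and its effect in a bulk library is averaged over transfected and untransfected cells. In such libraries a loss of cells and less RNA per cell cannot be told apart.

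Values are the authors' DESeq2-normalized read counts per gene, called normalized values here, and differences are on the scale of log2(value + 1). About 18700000 to 21500000 reads were estimated for each of the 6 libraries. The epithelial markers KRT8, KRT18 and EPCAM were high in all of them, with KRT8 between 44137 and 96048. Of the same list CLDN4, at 96.7 to 236, and LGALS4, at 0 to 56.4, were low. The summed epithelial level was 139300 to 270000 in SCR and 184500 to 231600 in siPOLR1D-2. The defining markers of leukocytes and endothelium were low, while HBA1 of the erythroid list was at 263 to 1825. PTPRC, the pan-leukocyte marker, was between 5.99 and 9.20, CDH5 of endothelium was at 0 in all 6 and PECAM1 was at most 4.82. The summed leukocyte list was 79.8 to 144 in SCR and 82.1 to 797 in siPOLR1D-2, where the top value is LYZ at 777 in replicate 1 alone. Fibroblast markers summed to 235 to 585 in SCR and 261 to 1126 in siPOLR1D-2, the top being replicate 3. Their part in the results was not tested.

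The 6 libraries did not form 2 tight groups. On the first principal component of the 12 SW480 libraries, which held 39.7% of the variance, SCR 2 and 3 lay at -77.9 and -76.7 and siPOLR1D-2 replicates 1 and 2 at -56.7 and -57.9. SCR 1 lay apart at -18.7, and siPOLR1D-2 replicate 3 at 37.0 fell among SCR 4 to 6, which lay between 24 and 37.6. Of 14800 genes tested, 2115 differed by more than 1 log2 unit between replicate 3 and the mean of replicates 1 and 2, against 916 between replicates 1 and 2. SCR 1 differed by more than 1 from the mean of SCR 2 and 3 in 2613 genes, and SCR 2 from SCR 3 in 1424.

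Genes with the widest gap between replicate 3 and the other siPOLR1D-2 libraries were chosen for that gap and are described without a test. VAT1L, a vesicle amine transport protein homologue, was at 5154 and 5701 in replicates 1 and 2 but at 29 in replicate 3. SCR 2 and 3 held 7034 and 4774 of it, SCR 1 held 611, and SCR 4 to 6 held 146 to 318. CACNA1E, a calcium channel subunit, was at 684 and 1006 in replicates 1 and 2 and at 15 in replicate 3. PAPPA, a metalloproteinase that cleaves IGF-binding proteins, IRAK2, a kinase of interleukin-1 receptor signalling, and VGF, a neuropeptide precursor, were also low in replicate 3. In the other direction DPYD, the enzyme that breaks down pyrimidines and fluorouracil, was at 37 and 22 in replicates 1 and 2 and at 1478 in replicate 3. CSMD1, OLR1 (a scavenger receptor for oxidized LDL), KRT4 and SCN1A followed the same pattern. On the log2 scale replicate 3 sat, for all 10 genes, nearer to SCR 4 to 6 than replicates 1 and 2 did. SCR 1 did not always follow SCR 2 and 3, with KRT4 at 196 in SCR 1 against 122 to 172 in SCR 4 to 6, and PAPPA at 32.8 against 23.9 to 39.7.

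**Figure D1:**
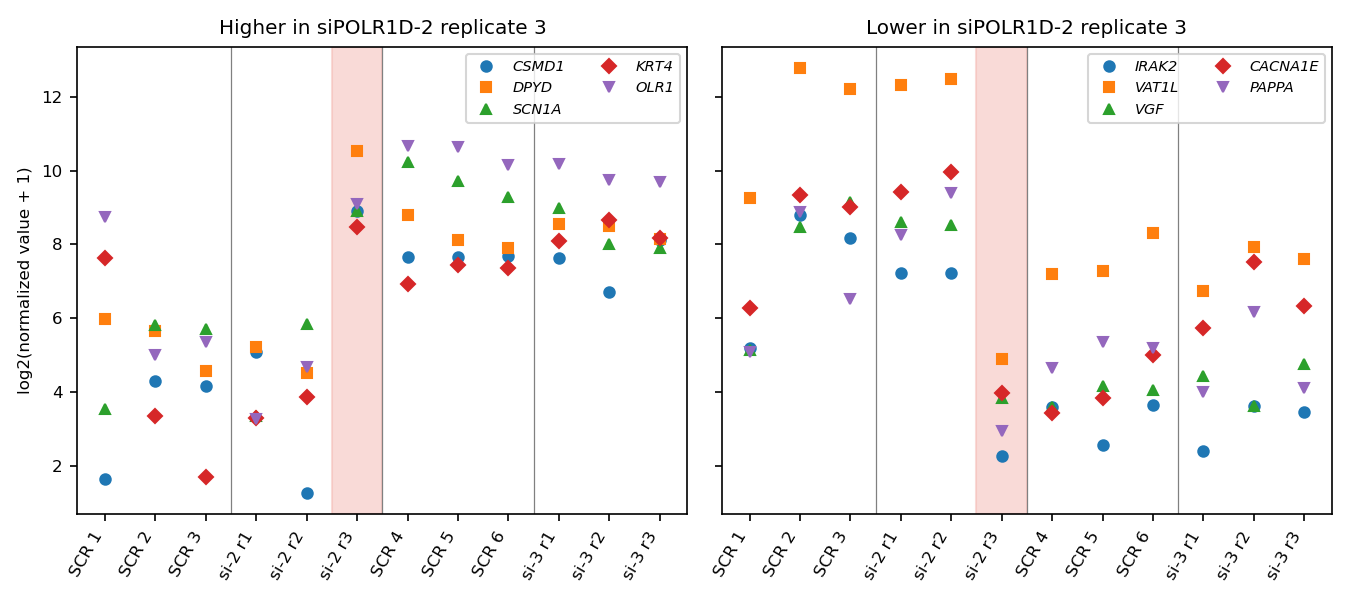
Level of the 10 genes with the largest gap between siPOLR1D-2 replicate 3 (shaded) and replicates 1 and 2, as log2(normalized value + 1), in the 12 SW480 libraries (si-2 is siPOLR1D-2, si-3 is siPOLR1D-3, r is replicate). Replicate 3 lies with the libraries to its right, and SCR 1 lies between the sets for several genes.

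POLR1D itself was lower in every siPOLR1D-2 library. Its normalized value was 2599, 2080 and 2278 in SCR 1, 2 and 3, and 1336, 913 and 972 in siPOLR1D-2 replicates 1, 2 and 3. The groups did not overlap, and the library closest to the controls was replicate 1. The log2 difference was -1.13 (SE 0.19, adjusted p = 0.110 from limma), which missed the threshold of 0.05 over all genes, and it was -1.06 without replicate 3. Replicate 3 was 0.98 log2 units below the mean of SCR 4 to 6, a set that it resembles more closely. With all 6 SCR libraries as controls and the 2 library sets as a term in the fit, the log2 difference was -1.03 and passed (adjusted p = 0.00311 from limma). siPOLR1D-3 gave -0.95 (SE 0.12, adjusted p = 0.000487 from limma) against SCR 4 to 6, where the values were 1829, 1932 and 1980 in SCR and 843, 1174 and 981 in silenced cells. In HT29 siPOLR1D-2 gave -0.54 (SE 0.17, adjusted p = 0.923 from limma), with 4433 to 6036 in SCR and 3414 and 3492 in silenced cells.

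No single gene passed an adjusted p of 0.05 in limma's test of the 3 siPOLR1D-2 libraries against SCR 1 to 3. The smallest adjusted p was 0.0918, shared by many genes. An unadjusted p under 0.05 was found for 2061 genes, 13.9% of those tested, with 841 higher (5.68%) and 1220 lower (8.24%). In 3103 genes (21%) the 3 silenced libraries lay wholly outside the range of the 3 controls, 1478 of them higher (9.99%) and 1625 lower (11%). Without replicate 3 there were again 0 calls, with 1458 genes (10.1%) at an unadjusted p under 0.05. With all 6 SCR libraries and the set as a term, 1282 of 15581 genes passed (8.23%), 444 higher (2.85%) and 838 lower (5.38%). The sets in that fit follow the first principal component and no label, and the fit reuses the 6 libraries, so its calls are not separate support.

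The siPOLR1D-3 and HT29 comparisons share no library with these 6, although siPOLR1D-3 and SCR 4 to 6 were part of the grouping by which the 6 were chosen. Of the 3103 genes that did not overlap, 836 (26.9%) were called in the same direction with siPOLR1D-3 against SCR 4 to 6 and 44 in the opposite one, where 16.8% and 3.37% of all 14800 genes were. These 836 make up 26.9% of the 3110 calls of siPOLR1D-3, which were 20.2% of 15414 genes, 9.27% higher and 10.9% lower. Of the 35 genes (0.236%) at an adjusted p under 0.1, 18 were called the same way with siPOLR1D-3 and 0 the other way. In HT29 26 of the 34 that were tested had the same sign, as did 61% of all genes tested in both, but limma called 0 genes there, with 384 (2.79%) at an unadjusted p under 0.05. Replicate 3 was also compared with SCR 4 to 6 alone. Among 2207 of the 14800 genes in which replicates 1 and 2 lay below SCR 1 to 3, replicate 3 lay below SCR 4 to 6 in 76.1% and above in 6.57%, where 37.4% and 36.6% of all genes did. Among 2251 genes above, it lay above in 69.1% and below in 10.1%. When the filter was set without replicate 3, 15% of genes lay above and 15.1% below SCR 1 to 3 in replicates 1 and 2.

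Of the genes higher after siPOLR1D-2, the 10 with the smallest p, a mean of at least 100 and no overlap with SCR 1 to 3 are described first. The separation of the groups in these genes follows from that choice. Their adjusted p was 0.0918 to 0.103 (limma), and without replicate 3 the log2 differences were 1.03 to 1.58. LSM14A, an RNA-binding protein of processing bodies, was at 2600, 2671 and 2220 in SCR 1 to 3 and at 6303, 5955 and 5589 in siPOLR1D-2. TNRC6A, the scaffold through which Argonaute proteins repress microRNA targets, was at 1196, 1663 and 1513 in SCR and at 4601, 3716 and 3234 in silenced cells. SAR1B, a GTPase that builds the coat of vesicles leaving the endoplasmic reticulum, was at 801, 690 and 825 in SCR and between 1746 and 1800 after silencing. Log2 differences were 1.26 (SE 0.15) for LSM14A, 1.40 (SE 0.19) for TNRC6A and 1.20 (SE 0.15) for SAR1B. With siPOLR1D-3 they were 0.81, 0.87 and 1.05, all called.

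The other 7 genes had differences of a like size. CYFIP2, a subunit of the WAVE complex that activates actin branching, was at 155 to 235 in SCR and at 515 to 817 after siPOLR1D-2, a log2 difference of 1.75 (SE 0.25). TLN1, talin 1, which links integrins to actin, was at 2127 to 2581 and at 3994 to 5766. MTPN, myotrophin, which inhibits actin capping protein, was at 700 to 924 and at 1580 to 1989. DPYSL3, a cytoskeletal adaptor, was at 367 to 618 and at 1361 to 1709. The remaining 3 were SAMD9, an interferon-inducible antiviral factor (log2 difference 1.48), the phosphatase PTP4A1 (1.55) and the mitochondrial topoisomerase TOP1MT (1.18). With siPOLR1D-3, 7 of the 10 were called in the same direction and 0 in the other, against 9.27% higher and 10.9% lower over all genes. SAMD9 (log2 difference 0.38, adjusted p = 0.152 from limma), CYFIP2 (0.59) and PTP4A1 (0.21) did not pass there. In HT29 8 of 10 had the same sign, against 61% of all genes, with SAMD9 at -0.37 and DPYSL3 at -0.32.

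Of the genes lower after siPOLR1D-2, the 10 chosen in the same way had an adjusted p of 0.0918 (limma), and without replicate 3 the log2 differences were -1.81 to -1.05. SNX9, a sorting nexin of clathrin-mediated endocytosis, was at 2514, 3482 and 4003 in SCR and at 932, 1202 and 910 in silenced cells, a log2 difference of -1.70 (SE 0.21). ACSL4, which activates arachidonic acid, was at 3541, 3487 and 3332 in SCR and at 1516, 1700 and 1185 after silencing. HSD17B4, a bifunctional enzyme of peroxisomal fatty acid oxidation, was at 5926 to 8611 and at 2285 to 3111. GPAT3, which starts triglyceride synthesis, was at 368 to 551 and at 146 to 184, and the lipase DDHD2 was at 1443 to 1560 and at 565 to 730. For these 4 genes the log2 differences were -1.25, -1.38, -1.55 and -1.26.

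HELZ2, a helicase known as a coactivator of nuclear receptors, showed the largest difference of the 10, at 416, 330 and 535 in SCR and at 130, 109 and 83.3 after siPOLR1D-2 (log2 difference -1.98, SE 0.28). RPS3A, a protein of the small ribosomal subunit, was at 25717, 18415 and 22876 in SCR and at 7704, 6268 and 9978 after silencing. GENCODE lists 38 pseudogenes named after RPS3A, so reads of this gene could have been split among near-identical copies. MAK16, a factor of large ribosomal subunit assembly, AHCYL1, a regulator of the inositol trisphosphate receptor, and BROX, a protein with a BRO1 domain, had log2 differences of -1.23, -1.07 and -1.16. With siPOLR1D-3, 5 of the 10 were called lower and 0 higher, against 10.9% lower and 9.27% higher over all genes. The 5 were SNX9 (-0.60), DDHD2 (-0.83), AHCYL1 (-0.35), MAK16 (-0.45) and GPAT3 (-2.33). ACSL4 (-0.03), HELZ2 (-0.04), BROX (-0.08), RPS3A (-0.11) and HSD17B4 (-0.17) did not pass there. In HT29 9 of 10 had the same sign, against 61% of all genes, MAK16 being the exception at 0.06.

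**Figure D2:**
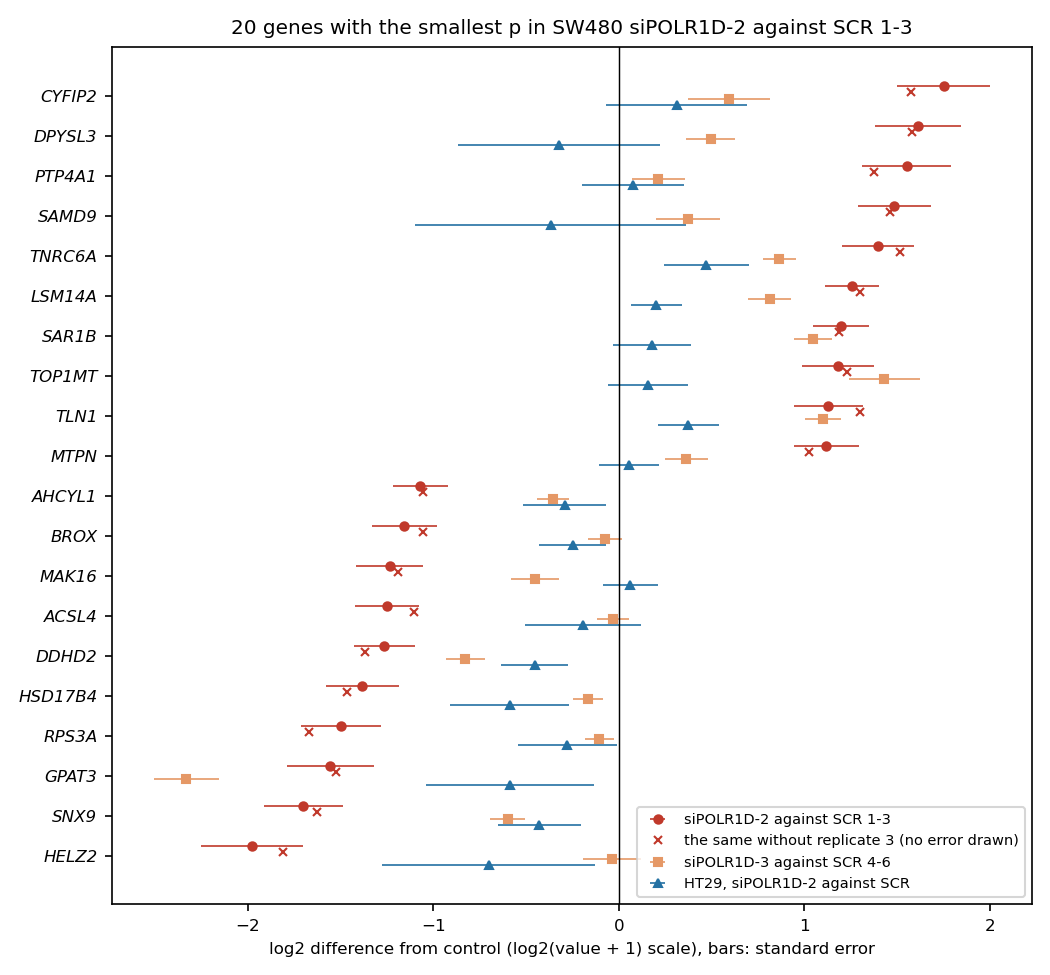
Log2 difference from control for the 10 higher and 10 lower genes with the smallest p in SW480 siPOLR1D-2 against SCR 1 to 3, with the same contrast without replicate 3, siPOLR1D-3 against SCR 4 to 6, and siPOLR1D-2 in HT29. Bars are standard errors, and the values with and without replicate 3 lie close to each other for every gene. The choice of genes with all 3 silenced libraries outside the range of SCR 1 to 3 favours this.

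The integrated stress response is a programme in which kinases sensing amino acid shortage, unfolded proteins or double-stranded RNA phosphorylate eIF2, and the transcription factor ATF4 then turns on amino acid synthesis and transport genes. Of 34 genes of this list tested, 12 were lower and 1 higher at an unadjusted p under 0.05, against 8.24% lower and 5.68% higher over all genes. The median log2 difference was -0.65, and -0.76 without replicate 3, where all genes had 0.01 and 0.02. In the fit with the set term 8 passed lower and 1 higher, against 5.38% and 2.85% of all genes. With siPOLR1D-3 30 of 34 were called lower, against 10.9% of all genes, with a median of -1.40. In HT29 the median was -1.23, but the SCR libraries there were far apart, PPP1R15A being at 3645, 2141, 354.5 and 716 in SCR and at 356 and 314 in siPOLR1D-2.

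ATF4 and CEBP proteins are known to bind a composite element whose core is TGATGNAA, found before many of these genes. The 8 letters were searched on both strands in the 250 bases before the start of RefSeq promoters (GRCh38.p14), and 3.14% of 35116 promoters held them. Among genes of this list 27 had a promoter entry, and 5 of these held the letters (18.5%), as did 3 of 19 aminoacyl-tRNA synthetases (15.8%). A gene was counted if any of its entries held them, while 3.14% is a share of entries. A gene with several entries had more chances, so these shares are not directly comparable. Of these 8 holders, CHAC1 (log2 difference -0.63) and CEBPG (-0.40) had an unadjusted p above 0.05 in limma. The windows of the other 6, chosen for their p, are shown in the direction of the gene with the match in capitals, so that the letters can be compared. A match describes the letters in the window and not a bound site.
ATF3, chr1:212565181-212565258, plus strand: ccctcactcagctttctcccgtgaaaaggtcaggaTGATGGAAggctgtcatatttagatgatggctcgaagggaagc
ASNS, chr7:97872434-97872511, minus strand: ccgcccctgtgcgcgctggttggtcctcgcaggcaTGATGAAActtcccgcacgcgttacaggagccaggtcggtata
JDP2, chr14:75427971-75428021, plus strand: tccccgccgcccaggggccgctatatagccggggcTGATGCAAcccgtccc
AARS, chr16:70289651-70289728, minus strand: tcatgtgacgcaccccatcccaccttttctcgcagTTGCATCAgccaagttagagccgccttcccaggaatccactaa
GARS, chr7:30594810-30594877, plus strand: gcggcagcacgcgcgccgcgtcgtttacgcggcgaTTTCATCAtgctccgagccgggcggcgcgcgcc
IARS, chr9:92293698-92293745, minus strand: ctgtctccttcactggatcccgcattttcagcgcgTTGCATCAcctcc

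In the last 3 windows the match lies on the other strand. ASNS, asparagine synthetase, was at 7151, 6695 and 18824 in SCR 1 to 3 and at 2451, 3439 and 2066 in siPOLR1D-2, so the groups did not overlap although SCR 3 stood far above the other controls. Its log2 difference was -1.90 (SE 0.39), against -1.68 with siPOLR1D-3 and -1.65 in HT29. ATF4 was at 5961, 7782 and 8030 in SCR and at 4374, 5347 and 4138 after silencing, with a log2 difference of -0.65. PHGDH, the first enzyme of serine synthesis, was at 5143 to 11593 in SCR and at 2221 to 4946 after silencing. JDP2, a repressor of the AP-1 family, was at 98.7 to 165 and at 48.0 to 84.8. All 4 genes passed in the fit with the set term.

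Other members were less clear because SCR 1 was low. DDIT3, the stress factor CHOP, was at 228 in SCR 1 and at 1309 and 1256 in SCR 2 and 3, with 196, 310 and 197 after siPOLR1D-2, so the groups overlapped. ATF3 was at 188, 1337 and 378 in SCR and at 116, 202 and 120 after silencing, again with an overlap at SCR 1. Over the list the mean level, relative to the mean of SCR 1 to 3, was -0.74 log2 units in SCR 1 and 0.32 and 0.42 in SCR 2 and 3. It was -0.96, -0.42 and -0.89 in siPOLR1D-2 replicates 1, 2 and 3, so SCR 1 lay within the range of the silenced libraries. In SCR 4 to 6 it was between 0.05 and 0.55 and in siPOLR1D-3 between -1.17 and -1.08. The gene of the list that was higher, ALDH18A1, makes a precursor of proline and was at 3412 to 5305 in SCR and at 6317 to 6532 after siPOLR1D-2. With siPOLR1D-3 ALDH18A1 differed by 0.03 and was not called.

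Aminoacyl-tRNA synthetases load each tRNA with its amino acid. Of 23 tested, 11 were lower and 0 higher at an unadjusted p under 0.05, against 8.24% lower over all genes. In 12 the silenced libraries lay below all controls, against 11% of all genes. The median log2 difference was -0.50, and -0.44 without replicate 3. In the fit with the set term 9 passed, all lower, against 5.38% lower over all genes. QARS was at 6590, 5829 and 5825 in SCR and at 3907, 3486 and 2937 after silencing, with a log2 difference of -0.83 (SE 0.16). GARS was at 35788, 54297 and 50184 in SCR and at 27544, 29829 and 22250 after silencing, with a log2 difference of -0.81 (SE 0.22). CARS was at 1939 to 2925 and at 1128 to 1653. With siPOLR1D-3 15 of the list were called lower and 1 higher, against 10.9% and 9.27% of all genes. There GARS was at -1.12, CARS at -1.11 and QARS at -0.01. For QARS the difference between the 2 responses was -0.82 (adjusted p = 0.111 from limma), which missed the threshold.

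**Figure D3:**
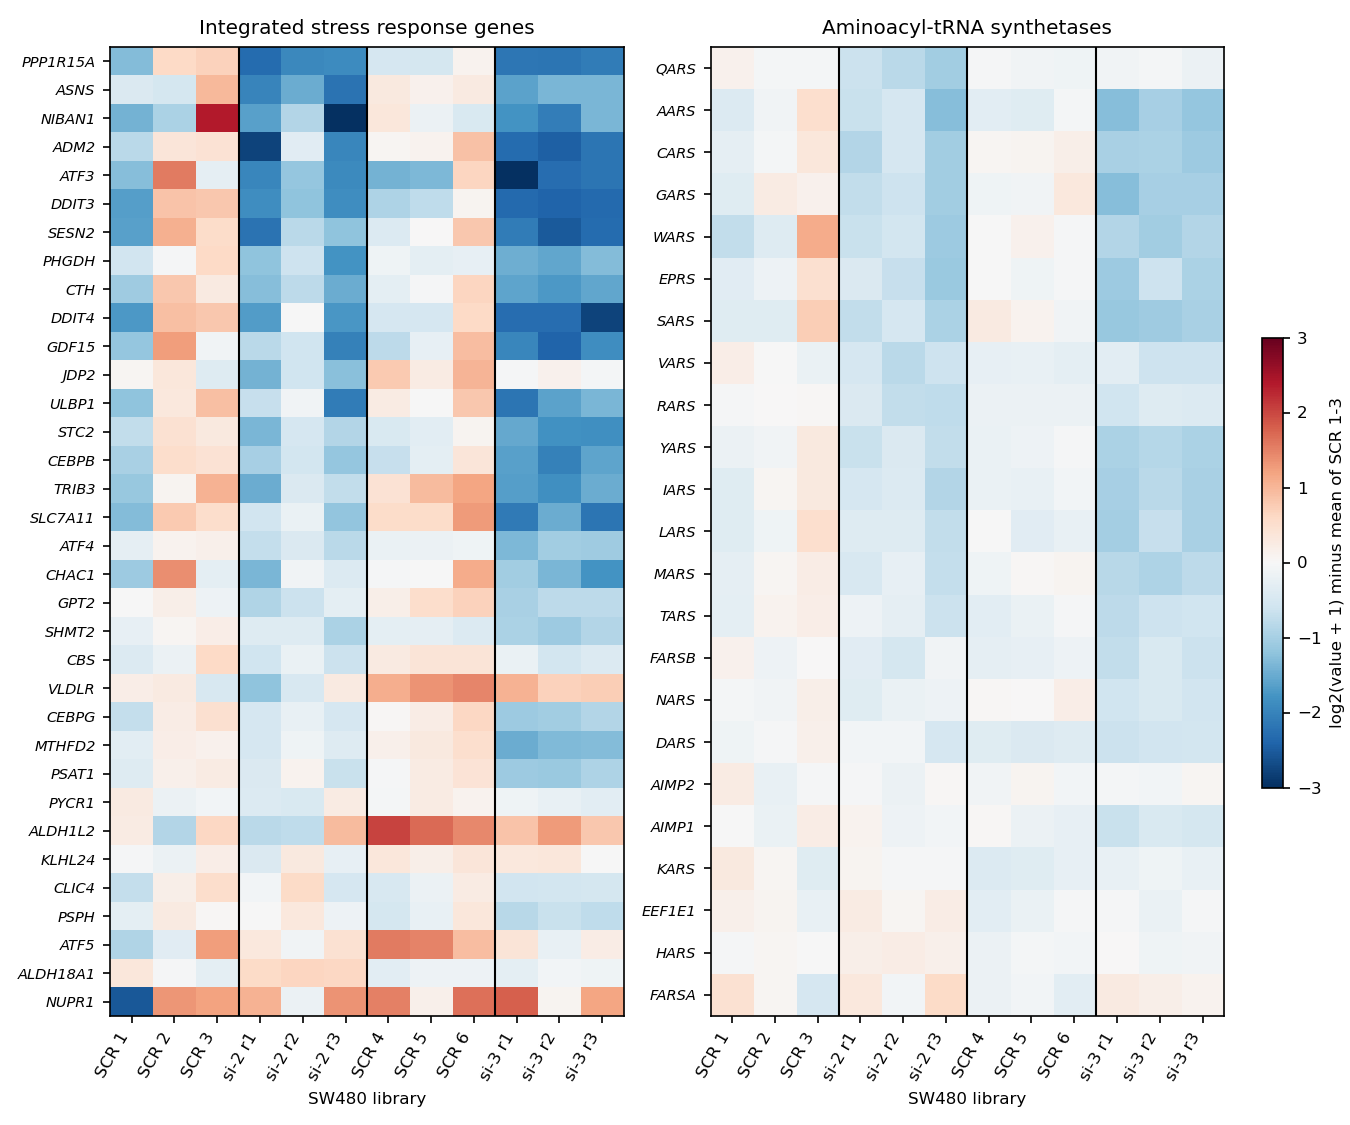
Each row is 1 gene of the integrated stress response list (left) or of the aminoacyl-tRNA synthetase list (right), each column 1 SW480 library, and the colour is log2(value + 1) minus the mean of SCR 1 to 3, with values beyond 3 drawn as 3. Most rows are blue in both silenced groups, and SCR 1 is blue for many stress genes in the left panel.

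The study followed up 8 genes from this RNA-seq, among them POLR1D, GARS and the pair VEGFA and EREG. Since it chose them on these and other libraries of the series, their direction is not independent evidence here. All 8 were lower on average after siPOLR1D-2. Of them 6 did not overlap with SCR 1 to 3, against 11% of all genes lying below. PPP1R15A, known as GADD34, which guides the phosphatase that reverses eIF2 phosphorylation, was at 974, 3605 and 3858 in SCR and at 483, 618 and 647 after silencing. Its log2 difference was -2.04 (SE 0.48, adjusted p = 0.175 from limma), and without SCR 1 it was -2.69 and passed (adjusted p = 0.0222 from limma). KIF21B, a kinesin motor, was at 594, 495 and 576 in SCR and at 246, 323 and 325 after silencing, a log2 difference of -0.90. MOSPD2, a tether between the endoplasmic reticulum and other organelles, was at 314 to 512 and at 198 to 250.

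EREG, the EGF receptor ligand epiregulin, was at 125, 159 and 357 in SCR 1 to 3 and at 99.7, 76.4 and 62.0 in siPOLR1D-2. The log2 difference was -1.29 (SE 0.42, adjusted p = 0.269 from limma), and -1.13 without replicate 3. With siPOLR1D-3 EREG was at 23.7 to 27.5 against 140 to 398 in SCR 4 to 6, a log2 difference of -2.97. AREG, amphiregulin, which neighbours EREG in function as a second ligand of the receptor, was at 1965, 4449 and 5620 in SCR and at 1064, 1413 and 964 after siPOLR1D-2, a log2 difference of -1.69. HBEGF, another ligand, was at 113, 322 and 597 in SCR and at 105, 126 and 68 after silencing, with an overlap at SCR 1. Of 10 EGF family ligands and receptors tested these 3 had an unadjusted p under 0.05, against 8.24% lower over all genes. With the set term 0 passed.

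VEGFA, the angiogenic factor, was at 751, 1595 and 1166 in SCR 1 to 3 and at 711, 905 and 718 in siPOLR1D-2. The groups overlapped because SCR 1 lay below replicate 2, and the log2 difference of -0.53 (SE 0.27, adjusted p = 0.424 from limma) was smaller than for the other siRNA. With siPOLR1D-3 it was -1.57 (SE 0.20), where the values were 1223 to 2366 in SCR 4 to 6 and 515 to 566 in silenced cells. The difference between both responses was 1.04 log2 units (adjusted p = 0.423 from limma), so the 2 siRNAs were not shown to differ. LRATD2, formerly FAM84B, was at 134 to 217 in SCR and at 128 to 164 after siPOLR1D-2, a log2 difference of -0.33 (adjusted p = 0.614 from limma). Replicate 3 lay below SCR 4 to 6 for all 8 genes, by 1.14 log2 units for VEGFA.

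**Figure D4:**
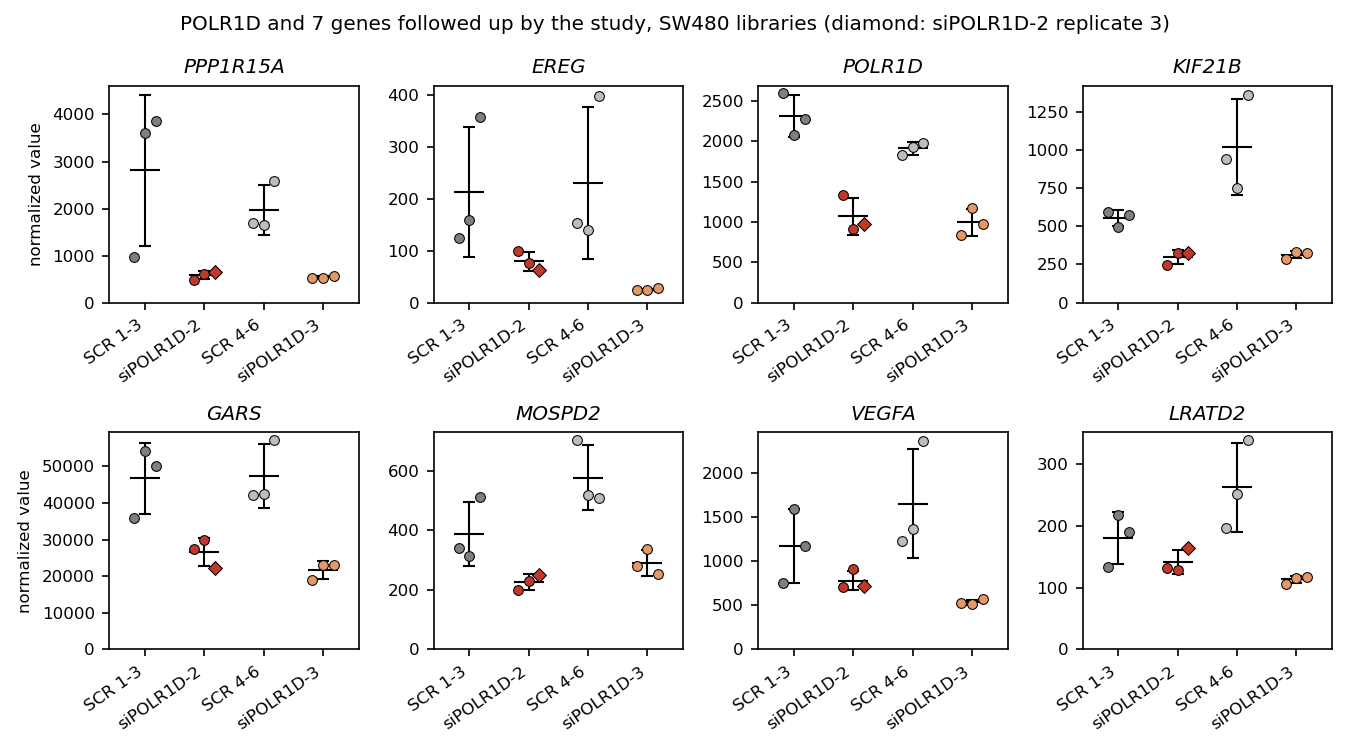
Normalized values of POLR1D and the 7 other genes followed up by the study in the 12 SW480 libraries, with points for libraries, horizontal lines for group means and bars for 1 SD (n = 3). siPOLR1D-2 and SCR 1-3 are separate for every gene except VEGFA and LRATD2, and SCR 1 has the lowest PPP1R15A of all 6 controls.

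Subunits of the 2 polymerases that contain POLR1D did not follow it. Of 24 subunits tested, 4 were higher and 1, POLR1D itself, lower at an unadjusted p under 0.05, against 5.68% and 8.24% of all genes. POLR3E, a subunit of RNA polymerase III, was at 890, 809 and 758 in SCR and at 1373, 1381 and 1275 after siPOLR1D-2, a log2 difference of 0.71 (SE 0.15). With siPOLR1D-3 it was 0.65, called, and it passed in the fit with the set term. POLR3K was at 107 to 204 in SCR and at 216 to 309 after silencing, and POLR1A, the largest subunit of RNA polymerase I, was at 2642 to 3261 and at 3513 to 4519. POLR1C, the partner of POLR1D in both enzymes, was at 1093 to 1291 and at 1242 to 1268, a log2 difference of 0.08. Among 24 initiation factors of both enzymes 1 had an unadjusted p under 0.05, BRF1 at 0.44. Among 40 ribosome biogenesis genes 1 was higher, RRS1 at 0.58, and 1 lower, RRP1B at -0.43. These counts of factors and biogenesis genes by p did not exceed the shares over all genes. Of the factors 4 lay above all controls and 1 below, against 9.99% and 11% of all genes. Without replicate 3, 3 factors were higher by p and 0 lower, where 580 and 878 of all genes were. In replicates 1 and 2, 9 factors lay above SCR 1 to 3 and 4 below, where 2251 and 2207 of 14800 genes did.

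Cytosolic ribosomal protein genes had mostly lower values after siPOLR1D-2. Of 77 tested, 15 were lower and 0 higher at an unadjusted p under 0.05, and 27 lay below all controls while 0 lay above. The shares over all genes were 8.24% lower by p and 11% below all controls. The median log2 difference was -0.21, with and without replicate 3, where all genes had 0.01 and 0.02. It was -0.05 under both upper quartile and quantile scaling, where all genes had 0.17 and 0.03. With siPOLR1D-3 1 was called lower and 1 higher, with a median of 0.04, and the difference of the medians was not tested. RPL3, at 27655, 22982 and 29480 in SCR, was at 13267, 14184 and 14137 after siPOLR1D-2, a log2 difference of -0.94 (SE 0.16), against -0.11 with siPOLR1D-3. RPS26 was at 3533 to 4867 and at 1895 to 2726, a log2 difference of -0.91, against 0.39 with siPOLR1D-3. For RPL3 the difference between the responses was -0.82 (adjusted p = 0.0963 from limma), which missed the threshold. Ribosomal protein genes have many processed pseudogenes, which can divide their reads. In the fit with the set term 13 of the list passed, all lower, against 5.38% lower over all genes. Over the list SCR 1 was highest, at 0.17 log2 units, and SCR 2, at -0.19, lay near the silenced libraries, which were between -0.28 and -0.24.

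Of 30 genes of mitosis tested, 11 were lower and 0 higher at an unadjusted p under 0.05, against 8.24% lower over all genes. The median was -0.34, and -0.36 without replicate 3, where siPOLR1D-3 had a median of 0.08 and HT29 0.34. Under upper quartile scaling it was -0.19, against 0.17 for all genes. NUF2, a kinetochore protein, was at 1086, 1108 and 1370 in SCR and at 731, 661 and 574 after siPOLR1D-2, a log2 difference of -0.86 (SE 0.18). TOP2A, which untangles DNA in mitosis, was at 14161 to 18577 and at 10615 to 13105, and KIF2C, a microtubule-shortening kinesin, was at 2781 to 3416 and at 1778 to 2132. In the fit with the set term 6 passed, all lower, against 5.38% lower over all genes. The mean level of the list was -0.12 in siPOLR1D-2 replicate 1, beside -0.10 in SCR 3. Genes of DNA replication did not share the direction. Of 36 tested 0 had an unadjusted p under 0.05 in limma, the median was 0.10, and MCM2, a subunit of the replicative helicase, was at 1630 to 2384 in SCR and at 2523 to 3098 after silencing.

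Other stress and signalling lists are given by their counts at an unadjusted p under 0.05, which over all genes was found for 5.68% higher and 8.24% lower. Of 27 chaperones and genes of the unfolded protein response 8 were lower and 0 higher. ERN1, the sensor IRE1, was at 184, 319 and 428 in SCR and at 74.6, 99.0 and 68.7 after siPOLR1D-2, a log2 difference of -1.86 (SE 0.35), against -1.55 with siPOLR1D-3. EDEM1, which sends misfolded glycoproteins to degradation, differed by -1.34. Of 21 targets of the antioxidant factor NRF2 6 were lower and 0 higher, led by TXNRD1 (-0.62), FTL (-0.61) and NQO1 (-1.14). Of 24 MAPK feedback and output genes 5 were lower and 0 higher, with a median of -0.51, among them ETV5 (-0.84), KLF6 (-1.15) and EPHA2 (-0.48). The mean level of that list in SCR 1, at -0.42 relative to SCR 1 to 3, lay within the range of siPOLR1D-2, -0.75 to -0.26. Of 19 heat shock genes 1 was higher, DNAJB1 at 0.68, while the median of the list was 0.38, and 12 were called higher with siPOLR1D-3, against 9.27% of all genes. The mean level of the heat shock list was 0.46, 0.02 and -0.49 in SCR 1 to 3 and 0.64, 0.41 and 0.02 in siPOLR1D-2, so the groups overlapped and SCR 3 was lowest. Of 30 apoptosis regulators 7 were lower and 1 higher. BCL2L11, the pro-apoptotic BIM, was at 116 to 193 in SCR and at 256 to 391 after silencing.

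**Figure D5:**
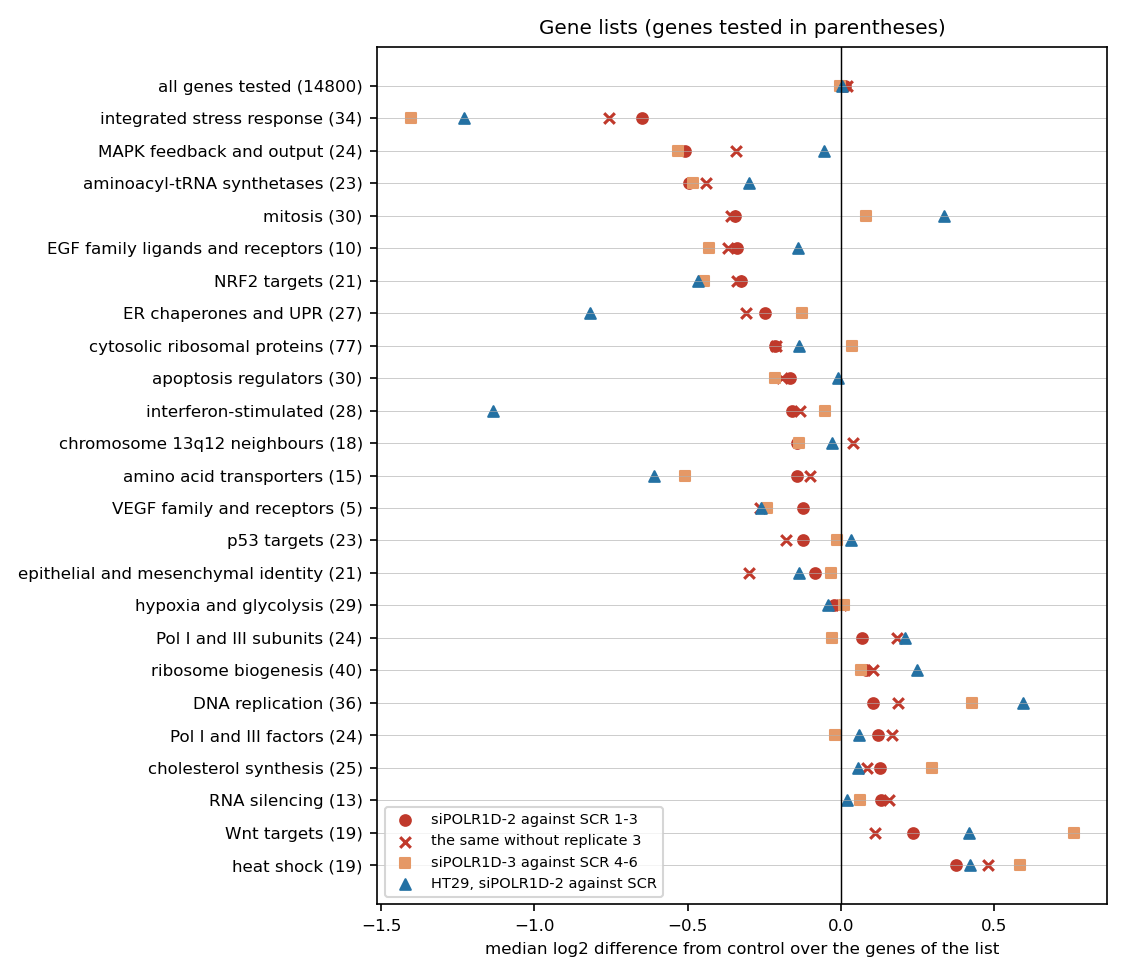
Median log2 difference from control over the genes of each list in SW480 siPOLR1D-2 against SCR 1 to 3, the same without replicate 3, siPOLR1D-3 against SCR 4 to 6, and siPOLR1D-2 in HT29. The stress response list is lowest and the heat shock list highest for siPOLR1D-2, and the mitosis and ribosomal protein medians lie on the other side of 0 for siPOLR1D-3.

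Genes that answer transfected RNA were mixed. Of 28 interferon-stimulated genes 2 were higher and 4 lower at an unadjusted p under 0.05, against 5.68% and 8.24% of all genes. DDX58, the RNA sensor RIG-I, was at 146, 270 and 311 in SCR and at 499, 589 and 483 after siPOLR1D-2, a log2 difference of 1.17 (SE 0.30), against -0.47 with siPOLR1D-3. SLFN5, an interferon-inducible regulator, was at 476, 837 and 3591 in SCR and at 121, 190 and 142 after silencing, a log2 difference of -2.92 (SE 0.64) against -1.51 with siPOLR1D-3. STAT2, which carries the interferon signal, was at 760 to 1238 and at 358 to 649. Of 13 RNA silencing genes 2 were higher, TNRC6A and TARBP2 (0.71), and 1 lower, TNRC6B at -0.76, so 2 paralogues of the same scaffold differed in opposite directions.

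The difference between the response to siPOLR1D-2 and that to siPOLR1D-3 was tested in 16007 genes. limma called 0 at an adjusted p of 0.05, with 1502 (9.38%) at an unadjusted p under 0.05, and the smallest adjusted p was 0.0604. The 5 genes with the smallest p were ACSL4, ARPC1A, CUX1, MTHFD2L and AASDHPPT. ARPC1A, a subunit of the ARP2/3 complex, was at 6091, 4840 and 4601 in SCR 1 to 3 and at 2615, 2208 and 1876 in siPOLR1D-2, and at 4473 to 4646 in SCR 4 to 6 and 4559 to 4860 in siPOLR1D-3. CUX1, a homeodomain transcription factor, was at 2825, 2895 and 2949 in SCR 1 to 3 and at 1609, 1625 and 1417 in siPOLR1D-2, with a log2 difference of -0.90 against -0.03 for siPOLR1D-3. MTHFD2L, a mitochondrial folate enzyme, was at 163 to 193 in SCR 1 to 3 and at 389 to 467 in siPOLR1D-2, with log2 differences of 1.21 and -0.20. AASDHPPT, which activates carrier proteins with phosphopantetheine, differed by 0.34 with siPOLR1D-2 and by -0.72 with siPOLR1D-3. None of these differences passed the threshold.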

How the data were processed

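Signal values, which are read counts normalized with DESeq2 (version 1.24.0) after kallisto 0.44.0, were deposited by the authors for each library. FastQC 0.11.5 and the build hg38 are also named in the submitters' processing notes, while the annotation is not given in the sources used here. Reads were 75 bp paired-end. Each file has 40117 rows, which were summed to 36346 gene names. Values are not whole, since 22.4% to 48.8% of low values in the 6 libraries were multiples of the value taken as 1 read, so a test for counts was not used and reads per library are estimates.

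Genes at 10 or more in at least 3 of the 6 libraries were tested with limma 3.58.1 (R 4.3.3), with a mean-variance trend, on log2(value + 1), with Benjamini-Hochberg adjustment over all 14800 genes and no covariate. siPOLR1D-3 and HT29 were fitted alone in the same way (HT29: 10 or more in at least 2 libraries), and the difference between siRNAs as an interaction. In simulated data on this comparison the fit recovered 25.6% of genes changed by 1 log2 unit and 71% of those changed by 2, with 6.4% wrong calls. No interval was derived from the values, as the reads per gene are not known.

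The libraries, gene lists and named genes were chosen with earlier results of these data known. Genes were named by rule: those the study names for the RNA-seq, the 10 higher and 10 lower with the smallest p (mean of at least 100, groups not overlapping, no clone-based names), up to 4 of each list, 5 of the difference test and 10 by which replicate 3 stood apart. Members named beyond these were chosen after their values were seen. Some list members that the rule named are not reported here. Replicates differed by more than sampling noise. Samples with the same number did not deviate together, with correlations of -0.201, 0.214 and -0.282, so numbers were not treated as pairs. Of the tested names 98.6% are in GENCODE 29, from which coordinates were taken. Python 3 and matplotlib drew the figures.

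Alternatives were other scalings, pseudocounts, filters and controls, the library set as a term, array weights, no trend, replicate blocks and each library left out. The set is SCR 1 to 3 with siPOLR1D-2 replicates 1 and 2, or SCR 4 to 6 with replicate 3. A fit of 2 against 2 libraries and the set term without SCR 1 were chosen after seeing the data.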

Additional observations from a re-analysis of the deposited data

Results flagged for a closer look

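In HT29, SCR replicate 1 stood apart from the other 3 SCR libraries for 2 of the genes that were lower in SW480 after siPOLR1D-2. HSD17B4 was at 20580 in SCR replicate 1 and at 10900 to 12090 in the other three, a gap of 0.878 of the group's range, and at 6719 and 11910 in siPOLR1D-2. BROX was at 2380 against 1841 to 1905, a gap of 0.881 of the range, with 1461 and 1901 in siPOLR1D-2. Such a gap was found in 2 of 32 groups examined, and chance gives it in about 1 in 20. Among 32 genes compared between the siRNAs in SW480, 2 moved in opposite directions in every library. Both had been named for the smallest p in the test of that difference, so this restates their choice. MTHFD2L was higher with siPOLR1D-2 and lower with siPOLR1D-3, a difference of 1.41 log2 units (adjusted p = 0.0604 from limma), and AASDHPPT differed by 1.06 (adjusted p = 0.0604 from limma). Neither difference passed the threshold of 0.05.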

How the results depend on the processing

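The count of genes past an adjusted p of 0.05 was 0 in the comparison of 3 with 3 libraries, and it depended on the controls. It was 2050 with SCR 4 to 6 (891 higher, 1159 lower) and 574 with all 6 SCR libraries. Against SCR 4 to 6, siPOLR1D-2 replicates 1 and 2 lie in the other library set, so siRNA and set cannot be told apart. The count was 1282 with the library set as a term, 3279 when SCR 1 was also left out, and 318 with array weights. It was 35 at an adjusted p under 0.1, 2 without the trend (FOXD4L6 and GAGE13, named after their values were seen) and 1 (PPP1R15A) in 2 against 2. Leaving out 1 library gave 0 to 1, the 1 being PPP1R15A without SCR 1. POLR1D was at -0.85 with SCR 4 to 6 (adjusted p = 0.0164), -0.99 with all 6 (0.0113), -1.03 with the set term (0.00311), -0.98 with the set term without SCR 1 (0.00144) and -0.98 with array weights (0.0381), all from limma, and between -1.29 and -1.02 when 1 library was left out. siPOLR1D-3 gave 1960 calls without the trend and 1878 to 2667 when 1 library was left out. Without siPOLR1D-3 replicate 3 it gave 1878, against 3110. The difference between siRNAs gave 25 calls with a pseudocount of 5, 12 at a minimum of 50, 1 without a filter and 1 without the trend. It gave 0 to 32 when 1 library was left out, 32 without SCR 3 and 4 without siPOLR1D-2 replicate 3. The cause was not tested.

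With replicate numbers as a block, SW480 had 0 calls from limma and 1530 genes with an unadjusted p below 0.05, POLR1D had an adjusted p of 0.389, and HT29 had 4 calls, with a correlation of -0.0429 between same-numbered HT29 libraries. In SW480 the samples share only a number. Upper quartile scaling turned the balance of siPOLR1D-3 calls from 1429 higher and 1681 lower to 1515 and 1321. It moved the median of all genes from 0.01 to 0.17, and quantile normalization to 0.03. Under the former the medians of p53 targets, amino acid transporters, VEGF family, hypoxia, epithelial and mesenchymal identity and 13q12 lists turned from below to above 0, all staying below the median of all genes. The hypoxia median also turned under quantile normalization (0.06), as did that of 2 leukocyte markers under upper quartile scaling (1.12). No named gene among 27 followed through all settings changed direction. These were the 10 higher and 10 lower genes and those followed up by the study, all chosen with these libraries. Their constant direction follows largely from that choice. Replicates per group, 3 or fewer, and unknown reads per gene limit the precision.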

Other observations

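Wnt target genes were not described above. Of 19 tested, 4 were higher and 1 lower at an unadjusted p under 0.05, against 5.68% and 8.24% of all genes. The median log2 difference was 0.24 (0.40 under upper quartile scaling), where all genes had 0.01 (0.17). With siPOLR1D-3 14 were called higher, against 9.27% of all genes. The mean level of the list in SCR 1, at 0.42, lay within the range of siPOLR1D-2, 0.16 to 0.55. PROX1, a transcription factor of intestinal progenitors, was at 1241, 1212 and 651 in SCR 1 to 3 and at 1997, 1613 and 2113 after siPOLR1D-2. AXIN2, a negative feedback gene of the pathway, was at 10552, 6768 and 5137 and at 10798, 10228 and 15614, so the groups overlapped. CD44, also counted in the list, was the lower member, at 2694 to 2719 in SCR and at 1096 to 1974 after siPOLR1D-2, a log2 difference of -0.76, and was called higher with siPOLR1D-3 (0.59). Among markers of epithelial identity KRT20, a keratin of differentiated enterocytes, was low in all 6 libraries. It was at 2 to 11 in SCR and at 21 to 95 after silencing, and KRT19 was at 6102 to 10128 and at 10524 to 15785. Others were lower, with TJP1 at -0.63, ESRP1 at -0.61 and CLDN4 at -0.53, where the groups overlapped for ESRP1 and CLDN4. In the same list LGALS1 (-1.01) and VIM (-1.22) were also lower, with an overlap for VIM. Of 21 genes of epithelial and mesenchymal identity 9 were higher and 12 lower in sign, so the list had no common direction.

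Of 18 genes around POLR1D on 13q12, 3 were lower at an unadjusted p under 0.05 and 1 higher, POLR1D included. The shares over all genes, for this and the lists below, were 8.24% lower and 5.68% higher. RNF6 was at 1864 to 2011 in SCR and at 947 to 1621 after siPOLR1D-2, and ATP8A2 was at 47 to 485 and at 14 to 41. Of 23 p53 targets 2 were higher and 4 lower. TIGAR was at 41 to 88 in SCR and at 485, 243 and 64 in siPOLR1D-2 replicates 1, 2 and 3, so its difference rested on replicates 1 and 2. In 15 amino acid transporters 2 were lower, SLC1A4 at -0.88 and SLC7A1 at -0.44. Of 25 cholesterol synthesis genes 0 had an unadjusted p under 0.05 in limma, and none passed with the set term. With siPOLR1D-3 10 were called higher, against 9.27% of all genes. In 29 hypoxia and glycolysis genes 3 were lower, BNIP3L, PDK1 and PFKP, and 0 higher. In 5 genes of the VEGF family and its receptors 1 was lower, NRP1, at 929, 2967 and 5792 in SCR and at 907, 1262 and 546 after siPOLR1D-2. Of 21 genes of epithelial and mesenchymal identity 2 were higher, KRT20 and KRT19, and 3 lower, TJP1, LGALS1 and VIM.

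Erythroid markers summed to 376 to 1947 in SCR and 602 to 1293 in siPOLR1D-2, mostly HBA1, and endothelial markers to 22.5 to 66.2 and 17.1 to 32.6.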
